A study of Mus musculus with 4 samples.

Results

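Iron and heme handling was followed in mouse aorta through 8 genes of the 32285 features counted: Hmox1, Slc40a1, Fth1, Ftl1, Tfrc, Slc11a1, Slc48a1 and Blvrb. They were chosen by name for their roles, not for their measured values, and all 8 were found by symbol in the count matrices. Each was read in 4 single-cell RNA libraries, 1 per group, made from enzymatically dissociated aorta with a droplet 3' kit. Normal diet was given to a WT and a LysM-DKO group, and western diet to a WT/ApoE-/- and a LysM-DKO/ApoE-/- group. Where 4 values follow each other, they stand in that order. ApoE-/- mice lack apolipoprotein E, clear lipoprotein remnants poorly and develop plaques on a fat-rich diet. LysM is the common name of lysozyme M, a gene active in macrophages, monocytes and neutrophils. The labels give neither the genes behind DKO nor the Cre line, age, sex or number of animals, so the deletion itself was not checked, and p-values or spreads between animals cannot be given. Both western diet groups carried ApoE-/- and neither normal diet group did, so diet and ApoE genotype cannot be told apart.

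Macrophages take up dying red cells and other iron-rich debris, and the heme they carry is broken down by heme oxygenase into iron, carbon monoxide and biliverdin. The freed iron is stored in ferritin or leaves the cell through ferroportin, while transferrin-bound iron enters through the transferrin receptor. When iron is scarce, iron regulatory proteins bind a hairpin called the iron-responsive element, which blocks translation of the ferritin messages at their 5' end and stabilizes the transferrin receptor message at its 3' end, and in plaques this handling matters because hemorrhage and engulfed red cells load macrophages with heme.

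Of the 8 genes, Hmox1 encodes the inducible heme oxygenase (GRCm38 chr8:75093621-75100589, plus strand), and Blvrb encodes a biliverdin reductase (chr7:27447978-27466144, plus strand). Slc48a1 encodes the transporter HRG1, which moves heme out of the phagolysosome (chr15:97778520-97792692, plus strand, overlapped on the other strand by Hdac7). Slc11a1 encodes NRAMP1, which moves iron and manganese out of phagosomes (chr1:74375195-74386062, plus strand), and Slc40a1 encodes the iron exporter ferroportin (chr1:45908068-45926523, minus strand). Fth1 encodes the ferritin heavy chain, which oxidizes iron (chr19:9980598-9985098, plus strand). Ftl1 encodes the ferritin light chain, which helps mineralize it (chr7:45457944-45459884, minus strand, overlapped by Gm22133 on the same strand and Gm10252 on the other). Tfrc encodes the transferrin receptor (chr16:32608920-32632794, plus strand). Locations are from GENCODE M21.

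The hairpins through which iron sets the fate of the ferritin and transferrin receptor messages are printed here because they place Fth1 and Ftl1 on one side of this control and Tfrc on the other. The search required an unpaired C, a stem of 5 pairs with G-T pairs allowed, and the loop CAGTGN with N not G. Among Fth1, Ftl1, Tfrc, Slc11a1 and Blvrb, it matched the 5' UTR of Fth1 and of Ftl1 once each and the 3' UTR of Tfrc 4 times. The loop is in capitals, and every sequence is 17 bases of GRCm38, read 5' to 3' on the gene's strand.
Fth1, 5' UTR, chr19:9982738-9982754, plus strand: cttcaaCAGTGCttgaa
Ftl1, 5' UTR, chr7:45459785-45459801, minus strand: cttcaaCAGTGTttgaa
Tfrc, 3' UTR, chr16:32631225-32631241, plus strand: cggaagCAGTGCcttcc
Tfrc, 3' UTR, chr16:32631604-32631620, plus strand: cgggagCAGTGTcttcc
Tfrc, 3' UTR, chr16:32631669-32631685, plus strand: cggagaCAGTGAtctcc
Tfrc, 3' UTR, chr16:32631716-32631732, plus strand: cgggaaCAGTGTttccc
The same search matched 0.11% of 20916 genes in the 5' UTR and 0.475% of 21039 genes in the 3' UTR. In the RefSeq promoter table (GRCm38.p6), Fth1, Ftl1, Tfrc, Slc11a1 and Blvrb have 8 start sites, and the antioxidant response core TGACNNNGC was found on neither strand in the 250 bases before any of them, while 10.2% of 32851 promoters held it. Hmox1, Slc40a1 and Slc48a1 are not reported in these searches.

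Barcodes of at least 1000 unique molecular identifiers (UMIs, 1 per captured RNA molecule) with at most 10% mitochondrial UMIs were kept, which left 7758, 8230, 13744 and 8133 barcodes with median depths of 4167, 3404, 2103 and 6761 UMIs. Each barcode was placed in the first of 6 classes whose marker genes it carried, none of them a gene of this report. The macrophage class held 92, 208, 939 and 135 barcodes, with 477498, 1100823, 3911134 and 701811 UMIs in all. Markers left out of the rule were highest in their own class in every library, except Cd2 of the T class in LysM-DKO/ApoE-/- on western diet, where the B class held 14 barcodes. Of the macrophage barcodes, 52, 128, 393 and 46 also met the smooth muscle rule, and no doublet caller was run. Summed smooth muscle markers of the macrophage class were 4358, 4543, 8539 and 4954 CPM, and fibroblast markers 580, 498, 3333 and 774 CPM. Both were highest in WT/ApoE-/- on western diet, and their part in the macrophage ratios was not tested. Mixing was larger in the endothelial class, where 572 of 732, 611 of 880, 311 of 394 and 347 of 417 barcodes met the smooth muscle rule. Its summed smooth muscle markers were 17598 to 24558 CPM, against 116 to 522 CPM of endothelial markers, so its levels are those of a mixed class. Xist stood at 950 CPM in both normal diet libraries and at 0.636 and 0.563 CPM in the western diet ones, so the sex of the animals differed together with diet. Globin UMIs made up 19622, 21338, 1271 and 324 CPM of the kept barcodes, and 197, 4196, 98.4 and 1.42 CPM of the macrophage class. Pairs of libraries shared 9 to 41 kept barcode sequences, at most 0.528% of the smaller library.

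Of the 8 genes, 6 had their highest level of the 6 classes in the macrophage class in all 4 libraries: Hmox1, Slc40a1, Fth1, Ftl1, Slc11a1 and Blvrb. How many of all genes were highest there was not counted. Levels are in CPM, the UMIs of a gene scaled to a total of 1000000 for a class in a library, with exact Poisson 95% intervals in brackets that cover counting error only. With 1 library per group there is no replicate, so no difference between groups was tested. Hmox1 stood at 2528 [2387 to 2674], 2534 [2440 to 2629], 296 [280 to 314] and 368 [324 to 415] CPM in macrophages. Both normal diet libraries were high, both western diet libraries were low, and the intervals of the 2 diets did not overlap. In every library the fibroblast class came next for Hmox1, at 617, 713, 74.2 and 95.7 CPM, with the endothelial class after it. Outside the 6 classes, 3, 3, 12 and 1 barcodes had at least 10 UMIs of the neutrophil genes S100a8 and S100a9. The 12 stood above macrophages of their library, at 707 [377 to 1209] CPM for Hmox1 and 40527 [37668 to 43544] CPM for Fth1. Smooth muscle, with 3690, 3487, 8836 and 6636 barcodes, held 44.2%, 34.4%, 30.3% and 45.3% of all Hmox1 UMIs of the kept barcodes, against 12%, 18.4%, 38.3% and 17.8% in macrophages.

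Ferroportin was sparse. Slc40a1 gave 7, 31, 24 and 16 UMIs in macrophages, that is, 14.7 [5.89 to 30.2], 28.2 [19.1 to 40], 6.14 [3.93 to 9.13] and 22.8 [13 to 37] CPM. WT/ApoE-/- on western diet was the lowest, and its interval overlapped only that of WT on normal diet. Macrophages led the fibroblast class, the next highest, beyond counting error in LysM-DKO/ApoE-/- on western diet, and in LysM-DKO on normal diet they led smooth muscle likewise. In both WT libraries the macrophage and fibroblast intervals overlapped.

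Ferritin transcripts were abundant in every class. Fth1 in macrophages stood at 15500, 18568, 22590 and 22037 CPM, highest in the 2 western diet libraries. The next class was smooth muscle at 7123, 8326 and 10688 CPM, except in WT/ApoE-/- on western diet, where it was endothelial at 14480 CPM. Ftl1 in macrophages stood at 9437, 10535, 10337 and 8967 CPM, with no order by diet. In the other 5 classes Ftl1 ranged from 546 CPM in smooth muscle of LysM-DKO/ApoE-/- on western diet to 2804 CPM in fibroblasts of LysM-DKO on normal diet. Both chains have related gene copies. Among those the matrices list, Ftl1-ps1 had 993 UMIs and Fthl17a 141 UMIs over all kept barcodes of the 4 libraries, against 271459 UMIs of Ftl1 and 1839553 of Fth1, and how reads matching several copies were counted is not given in the sources used here.

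The transferrin receptor, Tfrc, stood at 170 [135 to 211], 144 [122 to 168], 26.3 [21.5 to 31.9] and 57 [40.7 to 77.6] CPM in macrophages. The normal diet libraries were high, WT/ApoE-/- on western diet was the lowest, and the LysM-DKO/ApoE-/- library lay between, with no overlap with either side. In WT/ApoE-/- on western diet the B class at 94 CPM and the T class at 78.3 CPM were above macrophages. In the other 3 libraries macrophages led, although in LysM-DKO/ApoE-/- on western diet their interval overlapped that of the 33 T barcodes.

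Among the genes of the phagosome, Slc11a1 stood in macrophages at 33.5 [19.2 to 54.4], 63.6 [49.6 to 80.3], 51.1 [44.3 to 58.7] and 52.7 [37.1 to 72.7] CPM. The next class, fibroblasts, stood at 3.51, 7.37, 4.35 and 6.62 CPM, so macrophages were 7.96 to 11.8 times higher with no overlap of intervals. The heme transporter Slc48a1 had another distribution and was not highest in macrophages in any library. Its macrophage level was 37.7 [22.3 to 59.6], 47.2 [35.3 to 61.9], 94.1 [84.7 to 104] and 67 [49.2 to 89.1] CPM. Smooth muscle stood at 93.3, 90.9, 120 and 103 CPM for Slc48a1 and the endothelial class at 86.1, 78.6, 135 and 94.3 CPM, and these 2 classes overlapped in all 4 libraries. As most endothelial barcodes also met the smooth muscle rule, that likeness cannot be told apart from shared RNA. Blvrb stood over all macrophages at 249 [206 to 298], 263 [233 to 295], 243 [228 to 259] and 239 [205 to 278] CPM, with every interval overlapping every other. Fibroblasts stood next for Blvrb at 81.5, 126 and 102 CPM, and in LysM-DKO/ApoE-/- on western diet the 14 B barcodes gave 120 [43.9 to 260] CPM, an interval that overlapped that of macrophages.

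**Figure D1:**
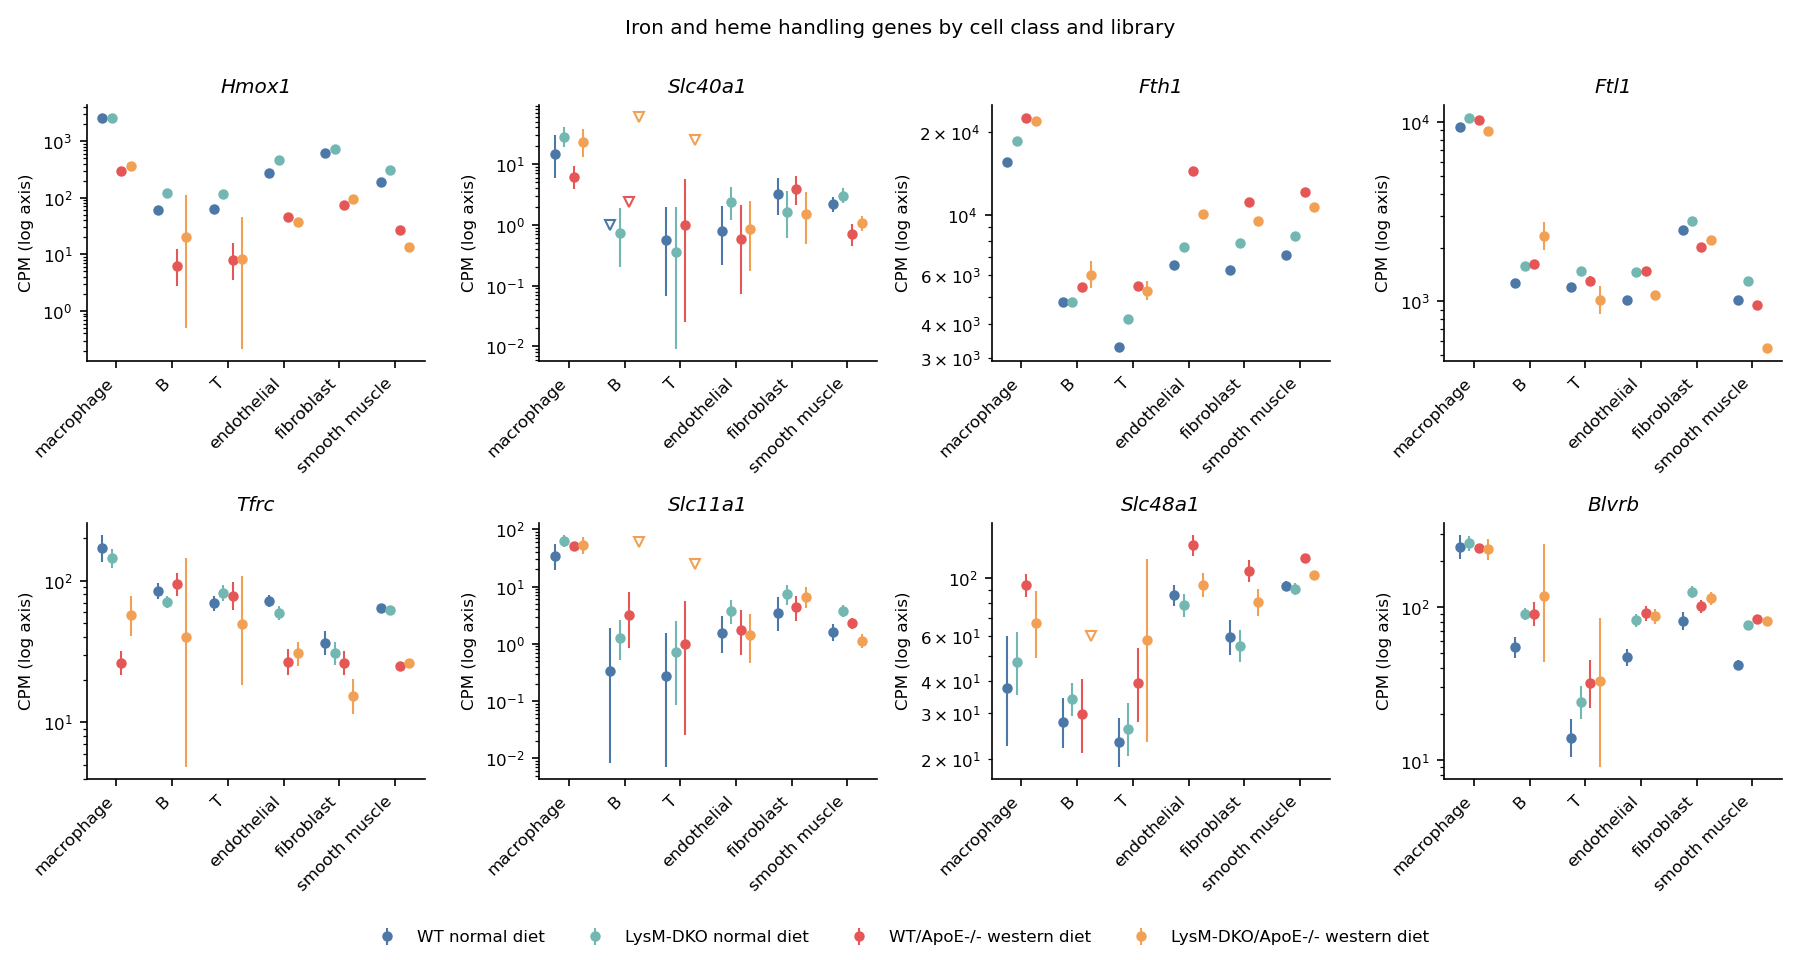
Level of each gene in CPM (log axis) by cell class, with 1 point per library colored by group and exact Poisson 95% intervals, where open triangles mark the limit that a count of 0 allows (3 UMIs). In macrophages, Hmox1 stands at 2528 and 2534 CPM on normal diet and at 296 and 368 CPM on western diet, while Blvrb lies between 239 and 263 CPM.

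Western diet libraries were set against normal diet libraries within each genotype, as log2 ratios of CPM in macrophages with 0.5 UMI added and exact binomial 95% intervals given the total. A gene was counted as past 2 fold at an absolute log2 ratio of at least 1 with at least 20 UMIs over both libraries. In WT, 4 of the 8 genes were past 2 fold, against 29.7% of 10342 genes tested, and 3 of them were lower, against 8.71%. In LysM-DKO, 2 of the 8 were past 2 fold, against 13.6% of 7668 genes, and both were lower, against 6.46%. The median over all genes tested was 0.25 in WT and 0.10 in LysM-DKO rather than 0, so ratios past 2 fold are also given relative to that median.

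Hmox1 was 8.53-fold lower on western diet in WT macrophages, a log2 ratio of -3.09 [-3.21 to -2.98], or -3.34 relative to the median gene. In LysM-DKO macrophages it was 6.88-fold lower, at -2.78 [-2.97 to -2.60], or -2.89 relative to the median gene. Only 0.522% and 0.73% of the genes tested had a ratio as low or lower. Tfrc was 6.45-fold lower in WT, at -2.69 [-3.12 to -2.25], and 2.5-fold lower in LysM-DKO, at -1.32 [-1.87 to -0.82], or -2.94 and -1.42 relative to the median gene. The other 2 genes past 2 fold in WT rested on few UMIs in the normal diet library, and in LysM-DKO they had ratios of -0.28 (Slc40a1) and 0.51 (Slc48a1). Slc40a1 had a log2 ratio of -1.33 [-2.51 to 0.20] in WT, from 7 and 24 UMIs, with an interval that includes 0, or -1.57 relative to the median gene. Slc48a1 had a log2 ratio of 1.28 [0.64 to 2.09] in WT, from 18 and 368 UMIs, which is 1.04 relative to the median gene and in a direction in which 21% of all genes were past 2 fold.

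Slc11a1 gave 0.57 [-0.13 to 1.44] for WT, then -0.26 [-0.89 to 0.32] for LysM-DKO, with intervals that include 0. Ferritin stayed within 2 fold. For WT the log2 ratio of Fth1 was 0.54 [0.51 to 0.58], and for LysM-DKO it was 0.25 [0.22 to 0.28], or 0.30 and 0.14 relative to the median gene. Ftl1 had 0.13 [0.09 to 0.18] and -0.23 [-0.28 to -0.19], or -0.12 and -0.34 relative to it. The biliverdin reductase gene Blvrb gave -0.04 [-0.31 to 0.25] and -0.13 [-0.42 to 0.15], both within counting error of 0.

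**Figure D2:**
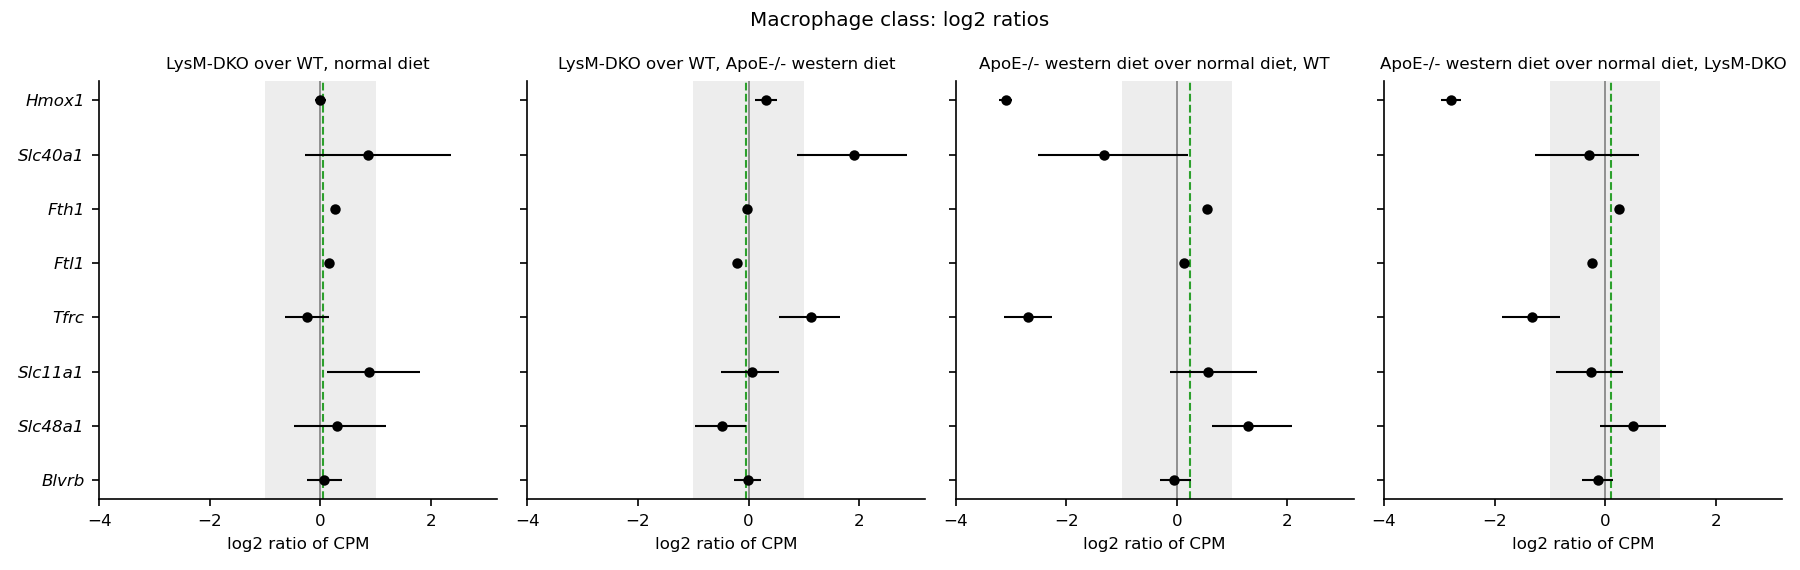
Log2 ratios of CPM in the macrophage class for the 8 genes in the 4 contrasts, as points with exact binomial 95% intervals (counting error only), where the gray band is within 2 fold and the dashed green line is the median over all genes tested. Hmox1 lies at -3.09 and -2.78 in the diet contrasts and at 0.00 and 0.31 in the genotype contrasts.

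The lower Hmox1 level on western diet was seen in each class that could be compared. In the endothelial class Hmox1 stood at 273, 462, 45.2 and 36.9 CPM, with log2 ratios of western over normal diet of -2.59 [-2.85 to -2.35] for WT, then -3.64 [-3.91 to -3.39] for LysM-DKO. Fibroblasts gave -3.05 [-3.24 to -2.88] and -2.90 [-3.07 to -2.73]. Smooth muscle, at 192, 303, 26.7 and 13.6 CPM, gave -2.85 [-2.95 to -2.75] and -4.47 [-4.59 to -4.36]. T cells gave -2.88 [-4.19 to -1.96] and -3.25 [-9.14 to -1.35], and B cells in WT gave -3.19 [-4.51 to -2.27], with 8 UMIs or fewer in each western diet library. The smooth muscle rule was also met by 482 of 773, 752 of 1121 and 90 of 503 B barcodes in the first 3 libraries. Of the T barcodes, 444 of 738, 449 of 645, 62 of 315 and 14 of 33 met it. The part of this mixing in the B and T values of Hmox1 was not tested. Hmox1 is also inducible by heat and oxidative stress, and tissue digestion is known to induce stress genes, so a list of 15 dissociation stress genes was measured beside it.

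In WT macrophages, 13 of the 15 stress genes were lower on western diet, 7 of them past 2 fold, against 8.71% of all genes. The list median was -0.99, beside 0.25 over all genes. In LysM-DKO macrophages 9 of 15 were lower, 2 of them past 2 fold, against 6.46% of all genes, with a median of -0.22 beside 0.10 over all genes. The 2 were the heat shock genes Hspa1a, at -1.27, and Hspa1b, at -2.08, which had -2.55 and -3.13 in WT. The summed level of the 15 genes was 16385, 13001, 7984 and 10645 CPM in macrophages, so it was higher on normal diet as Hmox1 was. In the other classes the list medians were -0.91 and -0.31 (endothelial), -0.82 and -0.33 (fibroblast) and -0.69 and -0.13 (smooth muscle), each for WT and then LysM-DKO. Over all genes the medians there were -0.02 and 0.04, 0.13 and 0.16, and -0.01 and -0.05, in the same order. In T cells, where Hmox1 was at -2.88 and -3.25, the list medians were 0.17 and 0.54, beside 0.22 and 0.19 over all genes. For WT B cells the list median was -0.12, beside 0.04 over all genes. In smooth muscle the larger Hmox1 ratio, -4.47, stood beside the list median nearer to 0. The part of these genes in the Hmox1 result was not tested. Sex, ApoE genotype, globin content and the version of the counting software also differed with diet and cannot be told apart from it.

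**Figure D3:**
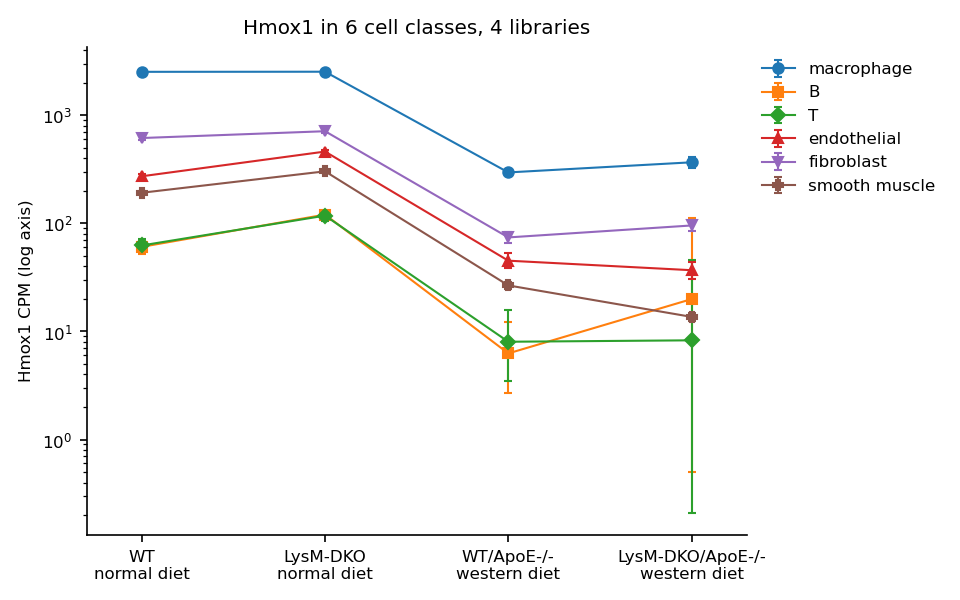
Hmox1 level in CPM (log axis) in 6 cell classes across the 4 libraries, where each point is 1 class in 1 library with its exact Poisson 95% interval and lines join the points of a class. Every class is lower in the western diet libraries, for example 617 and 713 against 74.2 and 95.7 CPM in fibroblasts, although the B and T points of LysM-DKO/ApoE-/- on western diet rest on 1 UMI each.

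The genotype contrast set LysM-DKO over WT within each diet. On normal diet none of the 8 genes was past 2 fold in macrophages, against 8.94% of 7068 genes tested. Hmox1 had a log2 ratio of 0.00 [-0.09 to 0.10]. In barcodes with resident markers (Lyve1 and Folr2) it was 0.33 [0.15 to 0.51], and without barcodes that met more than 1 class rule it was 0.37. In barcodes with neither resident nor foamy markers, described below, it was -0.11 [-0.25 to 0.04], and the lowest value over all settings was -0.14. The ratios nearest to 2 fold were those of Slc11a1, at 0.89 [0.13 to 1.81], and Slc40a1, at 0.87 [-0.27 to 2.37]. Fth1 gave 0.26 [0.22 to 0.30] and Ftl1 gave 0.16 [0.11 to 0.21], and without barcodes that met more than 1 class rule Fth1 gave -0.20.

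On western diet 2 of the 8 were past 2 fold in macrophages, against 13.2% of 10418 genes, and both were higher, against 4.1%. Slc40a1 was 3.75-fold higher in LysM-DKO/ApoE-/-, a log2 ratio of 1.91 [0.88 to 2.87] from 16 against 24 UMIs. Tfrc was 2.18-fold higher, at 1.12 [0.55 to 1.65] from 40 against 103 UMIs. Hmox1 gave 0.31 [0.11 to 0.51], beside a median of 0.31 over the stress genes, but its sign differed within the macrophage states described next: -0.41 [-0.77 to -0.07] in foamy, -0.29 [-0.76 to 0.20] in resident and 0.42 [0.02 to 0.79] in neither. Fth1 gave -0.04 [-0.06 to -0.01] and Ftl1 -0.21 [-0.24 to -0.17]. Neither of the 2 past 2 fold held under every setting: with at most 5% mitochondrial UMIs Slc40a1 had a log2 ratio of -0.38 and Tfrc 0.74. The macrophage makeup of these 2 libraries also differed, as the next values show.

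Macrophages were divided by markers of the resident state (at least 2 UMIs of Lyve1 and Folr2 together, which mark vessel-associated macrophages) and of the foamy state (at least 2 UMIs of Trem2 and Gpnmb together, which mark lipid-laden ones), each with fewer than 2 of the other pair. Resident barcodes made up 37%, 30.8%, 2.24% and 28.9% of the macrophage class, and foamy barcodes 9.78%, 7.69%, 42.8% and 33.3%. So the WT/ApoE-/- western diet library held 21 resident among 939 barcodes, against 39 of 135 in LysM-DKO/ApoE-/-. These shares depend on depth, which was a median of 2796 UMIs in the former library and 4025 in the latter. Barcodes of neither state, with fewer than 2 UMIs of each pair, had median depths of 3915, 4492.5, 1894 and 3992 UMIs. Foamy barcodes of WT/ApoE-/- on western diet had 3814.5, so barcodes of neither state there may have lacked marker UMIs for want of depth. Levels are given only where a subset held at least 20 barcodes, which leaves out foamy barcodes on normal diet. Barcodes with at least 2 UMIs of both pairs numbered 4, 10, 66 and 8 and are counted in no other subset. The 66 stood at 29.2 [16 to 49] CPM for Tfrc, 261 [217 to 311] CPM for Hmox1 and 20837 [20430 to 21249] CPM for Fth1. So in WT/ApoE-/- on western diet the resident levels given below do not hold for every barcode with resident markers.

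Tfrc differed between the subsets more than between the genotypes. Resident barcodes stood at 276 [202 to 368], 196 [149 to 254], 123 [56.3 to 234] and 186 [117 to 282] CPM for Tfrc, and foamy barcodes on western diet at 24.5 [18 to 32.6] and 28.6 [13.7 to 52.7] CPM. Within a subset the Tfrc log2 ratio of LysM-DKO over WT on western diet was 0.55 [-0.58 to 1.90] in resident, 0.28 [-0.93 to 1.23] in foamy and 0.30 [-1.53 to 1.55] in barcodes of neither state, so it was past 2 fold in none of the 3. Among resident barcodes the Tfrc ratio of western over normal diet was -1.10 [-2.38 to -0.11] for WT, while for LysM-DKO it was -0.06 [-0.86 to 0.66], so in LysM-DKO the difference seen over all macrophages was not past 2 fold there. In barcodes of neither state it was -2.41 [-3.20 to -1.58] and -1.94 [-3.74 to -0.78]. For Slc40a1 the ratio of LysM-DKO to WT with western diet was, in foamy barcodes, 1.30 [-0.43 to 2.70] from 20 UMIs, and the other subsets had 6 UMIs each.

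Fth1 had the opposite distribution. On western diet foamy barcodes stood at 26872 [26640 to 27105] and 27885 [27334 to 28444] CPM, and resident barcodes at 12410 [11615 to 13244] and 9170 [8632 to 9733] CPM. Resident barcodes on normal diet stood at 10579 and 12052 CPM for Fth1, so the diets were not in order there, and neither were they in barcodes of neither state, at 16564, 20310, 17996 and 17366 CPM. Ftl1 was likewise higher in foamy barcodes, at 13016 and 10484 CPM, than in resident ones on western diet, at 8073 and 6446 CPM. Blvrb was higher in resident barcodes, at 306, 396, 369 and 440 CPM, than in foamy ones, at 272 and 189 CPM, with overlap in WT/ApoE-/-. In that library the 66 barcodes with both marker pairs stood at 403 [348 to 464] CPM for Blvrb, so foamy markers did not always go with a lower level. Barcodes of neither state stood at 242, 214, 145 and 140 CPM for Blvrb, with ratios of western over normal diet of -0.75 [-1.20 to -0.25] for WT, then -0.59 [-1.26 to -0.001] for LysM-DKO. So the level of Blvrb over all macrophages, which was nearly the same in the 4 libraries, did not hold within that subset. The part of the depth of that subset, lowest in WT/ApoE-/- on western diet, was not tested.

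Hmox1 was lower on western diet in the resident barcodes too. They stood at 2272 [2049 to 2512], 2859 [2668 to 3060], 917 [710 to 1164] and 753 [605 to 927] CPM, which gave log2 ratios of western over normal diet of -1.30 [-1.71 to -0.93] for WT, then -1.92 [-2.26 to -1.61] for LysM-DKO. These are smaller in size than the -3.09 and -2.78 of all macrophages. Barcodes of neither state gave -3.38 [-3.57 to -3.19] and -2.85 [-3.23 to -2.51]. Foamy barcodes on western diet stood at 305 [281 to 331] and 229 [182 to 285] CPM, below the resident ones of the same libraries.

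**Figure D4:**
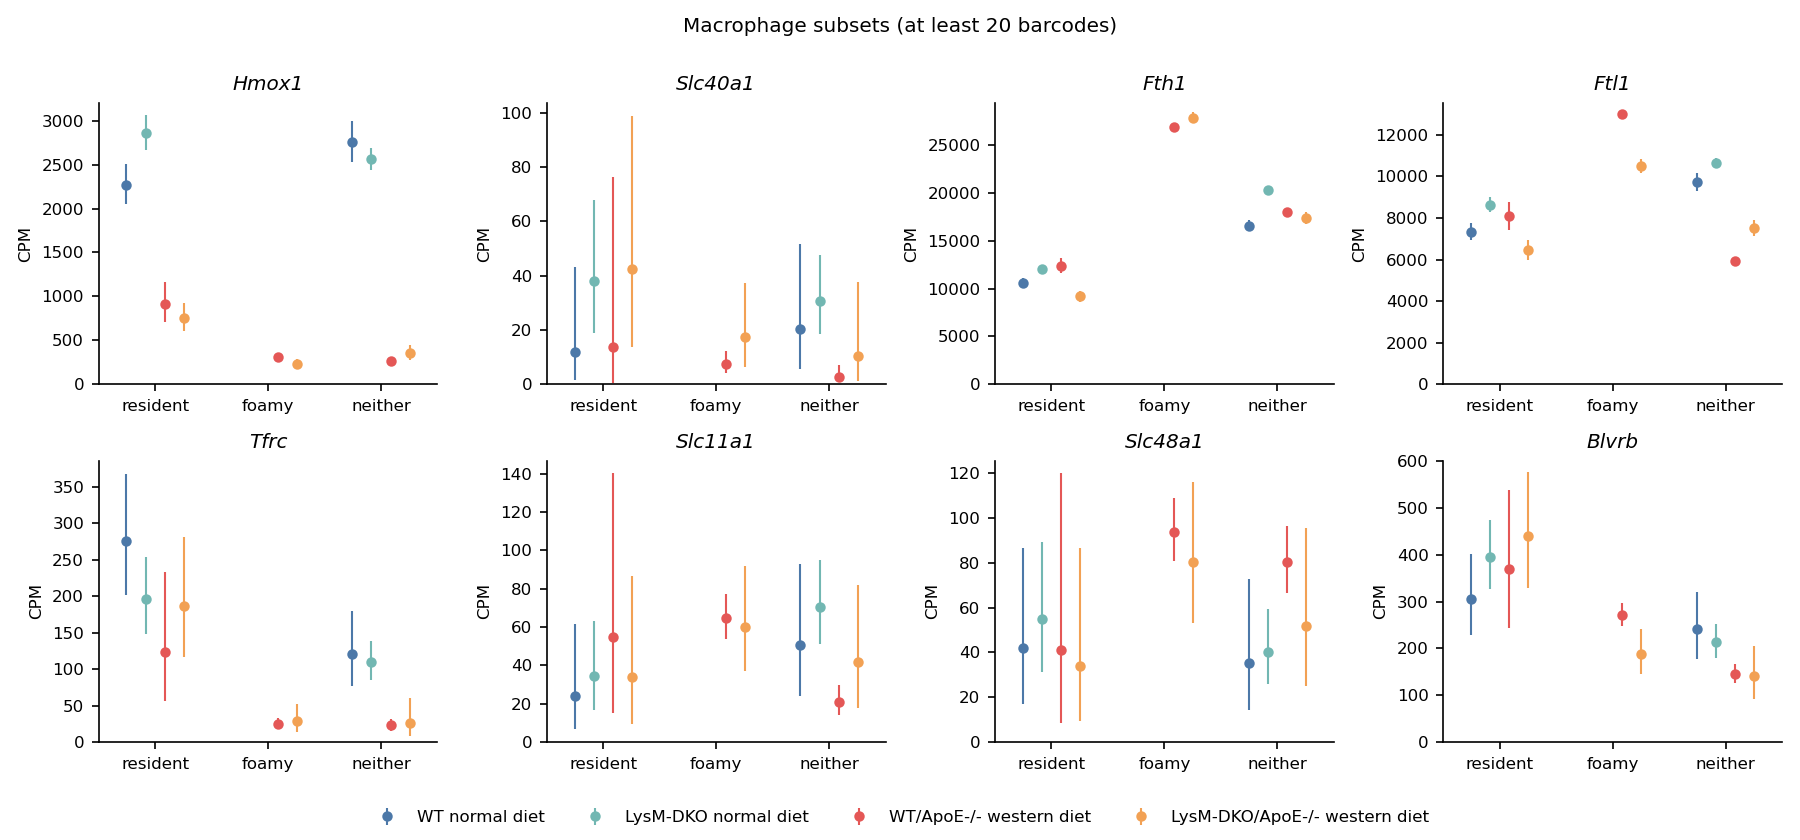
Level of each gene in CPM in macrophage barcodes of the resident, foamy and neither subset, with 1 point per library colored by group and exact Poisson 95% intervals, shown where a subset held at least 20 barcodes. Tfrc is between 123 and 276 CPM in resident barcodes and at 24.5 and 28.6 CPM in foamy ones, while Fth1 is at 26872 and 27885 CPM in foamy ones and at most 12410 CPM in resident ones.

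The balance of the 2 ferritin chains differed by class and by diet. Fth1 UMIs per Ftl1 UMI were 1.64, 1.76, 2.19 and 2.46 in macrophages, the lowest of the 6 classes in every library, although in the last the interval overlapped that of the 14 B barcodes. Smooth muscle stood at 7.03, 6.37, 12.7 and 19.6, and the endothelial class at 6.48, 5.20, 9.78 and 9.30. Fibroblasts stood at 2.52, 2.80, 5.53 and 4.32. In these 4 classes and in T cells both western diet libraries were above both normal diet libraries, and the B class, at 3.78, 3.04, 3.35 and 2.59, had no such order. Resident macrophage barcodes did not keep it either. They held 1765 Fth1 and 1222 Ftl1 UMIs in WT on normal diet. In LysM-DKO/ApoE-/- on western diet they held 1084 and 762, which is fewer Fth1 per Ftl1. The part of the foamy share, larger on western diet, in the macrophage order was not tested. The ratio compares UMIs of 2 transcripts and is not a ratio of protein.

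**Figure D5:**
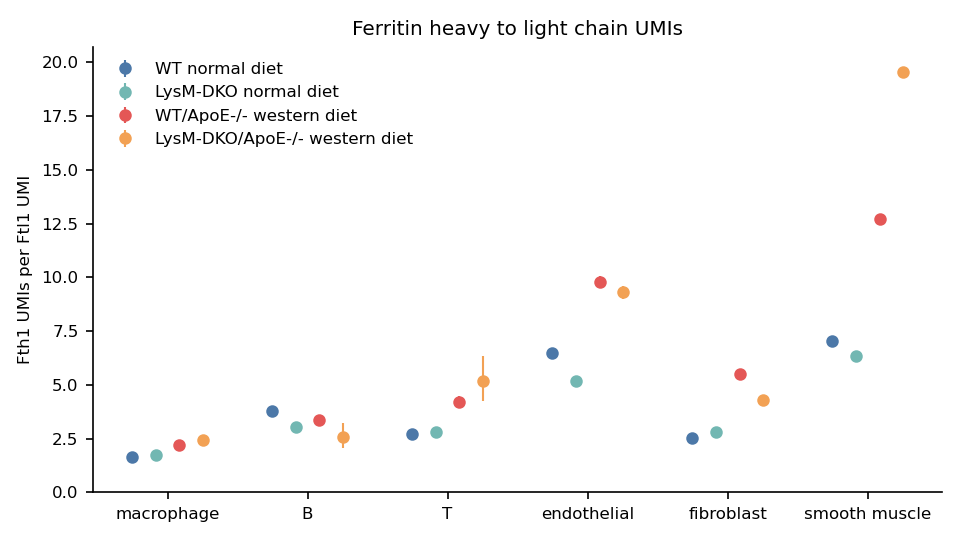
Fth1 UMIs per Ftl1 UMI in each cell class, with 1 point per library colored by group and exact 95% intervals (counting error only). Smooth muscle lies between 6.37 and 7.03 on normal diet and at 12.7 and 19.6 on western diet, and macrophages lie between 1.64 and 2.46.

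Outside macrophages the counts past 2 fold were as follows. In smooth muscle, western over normal diet, 3 of 8 genes were past 2 fold in WT against 14.7% of all genes, and 5 of 8 in LysM-DKO against 19.7%, and all of these were lower. They were Hmox1, Slc40a1 and Tfrc in both genotypes, with Ftl1 and Slc11a1 in LysM-DKO in addition. Tfrc stood at 63.9, 61.6, 24.9 and 26.1 CPM in smooth muscle, with log2 ratios of -1.36 [-1.48 to -1.23] and -1.24 [-1.36 to -1.12]. Ftl1 stood at 1014, 1308, 953 and 546 CPM there, and its ratio in LysM-DKO was -1.26 [-1.29 to -1.23]. In the genotype contrast of smooth muscle 1 of 8 was past 2 fold on each diet, against 7.45% and 11.4%, and both times it was Slc11a1, at 1.60, 3.78, 2.27 and 1.12 CPM, beside 0.333, 1.29 and 3.13 CPM in the B class of the first 3 libraries. Summed macrophage markers of the smooth muscle class were 17.8, 33.7, 25.4 and 9.60 CPM, and neutrophil markers 7.22, 192, 13.7 and 2.30 CPM. Both had the same order over the libraries as Slc11a1, and their part in its ratios was not tested.

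In the endothelial class, western over normal diet, 3 of the 6 genes with enough UMIs were past 2 fold in WT against 14.5%, and 2 of 7 in LysM-DKO against 12.2%. In WT they were Hmox1, Tfrc at -1.41 [-1.77 to -1.08], and Fth1 at 1.14 [1.12 to 1.16], from 6568 to 14480 CPM. Between those libraries the summed fibroblast markers of the class went from 2188 to 12022 CPM and its endothelial markers from 384 to 116 CPM, and their part in the Fth1 and Tfrc values was not tested. In LysM-DKO they were Hmox1 and Slc11a1, the latter from 5 and 19 UMIs. In its genotype contrasts 1 of 7 was past 2 fold on normal diet, against 4.57%, and 0 of 6 on western diet, against 6.72%, and the 1 was Slc11a1 from 19 and 8 UMIs. Fibroblasts had Hmox1 alone past 2 fold in both diet contrasts, 1 of 8 against 17.3% and 1 of 7 against 11.6%. Their genotype contrasts had 1 of 7 against 4.28% on normal diet, Slc11a1 from 27 and 10 UMIs, and 1 of 8 against 6.81% on western diet, Slc40a1 from 5 and 15 UMIs. In B cells 0 of 6 were past 2 fold for genotype on normal diet, against 6.36%, and 1 of 6 for diet in WT, against 12.4%, which was Hmox1. T cells had 0 of 6 and 0 of 5 for genotype, against 6.69% and 17.4%. For diet T cells had 2 of 6 in each genotype, against 16.6% and 28.5%: Hmox1 in both, with Blvrb in WT at 1.20 [0.50 to 1.85] and Slc48a1 in LysM-DKO at 1.24 [-0.22 to 2.26]. In smooth muscle, LysM-DKO over WT, Hmox1 had a ratio of 0.66 [0.60 to 0.72] with normal diet, and with western diet the ratio was -0.97 [-1.11 to -0.82]. Every setting tried for smooth muscle kept both signs.

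Other genes of iron and heme handling were taken from 9 lists. None with at least 50 UMIs in macrophages was past 2 fold the same way in both genotype contrasts. In the genotype contrasts of macrophages the lists for iron storage and chaperones, iron export and oxidation, and iron regulation had none past 2 fold on either diet, among 3, 1 and 4 genes with enough UMIs. The other genotype calls, against 8.94% of all genes on normal diet and 13.2% on western diet, included Slc25a28, a mitochondrial iron importer, at 2.01 [0.91 to 3.62] and Nr1h3, a sterol-sensing nuclear receptor, at 2.19 [0.90 to 4.28], both with normal diet. With western diet they included Steap4, with 32 UMIs in WT/ApoE-/- and 0 in LysM-DKO/ApoE-/-, and Hp, with 215 and 1. For diet those 3 lists had none either, except Aco1, a cytosolic iron regulatory protein, higher in WT at 1.12 [0.06 to 2.70]. It had 6 UMIs in WT on normal diet, and Ireb2, another iron regulatory protein, gave 0.18 [-0.70 to 1.35] in WT. The iron chaperones Pcbp2 and Pcbp1 stood at 576, 581, 459 and 608 CPM and at 350, 319, 251 and 373 CPM. The ferroxidase Cp stood at 58.6, 60.9, 61.1 and 44.2 CPM, and its homolog Heph had 7 UMIs in all. Hfe, which senses transferrin iron, stood at 33.5, 43.6, 37.1 and 48.4 CPM, and Fbxl5, which degrades an iron regulatory protein, at 44, 33.6, 31.2 and 41.3 CPM. Among iron uptake genes, Cd163, the scavenger receptor for hemoglobin bound to haptoglobin, stood at 442, 284, 23.3 and 249 CPM. It was lowest in WT/ApoE-/- on western diet, and there the ratio of LysM-DKO to WT was 3.42 on the log2 scale. The resident share was lowest in that library too, at 2.24%, and its part in this value was not tested. Lrp1, a receptor that takes up heme bound to hemopexin, stood at 174, 105, 444 and 372 CPM, with ratios of western over normal diet of 1.34 and 1.82. Of the iron uptake list, 4 of 6 genes were higher past 2 fold on western diet in WT and 2 of 6 lower, against 21% and 8.71% of all genes. In LysM-DKO 3 of 5 were past 2 fold, 2 of them higher, against 13.6% either way. Slc11a2, the importer DMT1, was among the lower ones in both, at -1.63 and -1.58.

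Of the targets of NRF2, a factor that responds to oxidative stress and also drives Hmox1, 3 of 8 were lower past 2 fold on western diet in WT and 3 of 7 in LysM-DKO, against 8.71% and 6.46% of all genes, with list medians of -0.80 and -0.97 beside 0.25 and 0.10 over all genes. Gclm and Gclc, which make the subunits of the enzyme for the first step of glutathione synthesis, were among them in both. The 2 with the most UMIs were Prdx1, a peroxidase, with ratios of -0.72 and -0.89, and Txnrd1, a thioredoxin reductase, with -1.06 and -0.97. Nqo1, at 4.19, 8.18, 9.72 and 1.42 CPM, was lower past 2 fold in LysM-DKO over WT on western diet and rested on 1 UMI there.

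Among the transcription factors of heme and iron genes, Nfe2l2, which encodes NRF2, stood at 553, 408, 344 and 416 CPM in macrophages. Bach1, the heme-binding repressor of Hmox1, stood at 526, 442, 251 and 295 CPM, with ratios of western over normal diet of -1.07 and -0.58. Spic, a factor of red-pulp and iron-recycling macrophages, was lower on western diet in both genotypes, at -2.40 and -2.54, from 14, 59, 22 and 6 UMIs. In WT 4 of 7 factors were lower past 2 fold (Bach1, Maf, Mafg and Spic), against 8.71% of all genes, and in LysM-DKO 1 of 7, Spic, against 6.46%. Maf stood at 341, 272, 118 and 380 CPM, and was 1.69 on the log2 scale in LysM-DKO over WT on western diet.

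For heme breakdown and transport, 3 of 6 genes were higher past 2 fold on western diet in WT, Hmox2 at 1.32, Blvra at 1.71 and Hp, against 21% of all genes, and 0 of 4 were past 2 fold in LysM-DKO, against 13.6%. Hmox2, the constitutive heme oxygenase, stood at 18.8, 31.8, 49.6 and 59.8 CPM, lower on normal diet, where Hmox1 was higher. Pgrmc1, a heme-binding membrane protein, stood at 88, 111, 107 and 111 CPM. In heme synthesis, Cpox, a late enzyme of the pathway, stood at 6.28, 17.3, 15.9 and 12.8 CPM. Alas1, the rate-limiting enzyme of that pathway outside red cells, stood at 52.4, 48.1, 43 and 62.7 CPM. In mitochondrial iron, Slc25a37, the importer mitoferrin, was lower on western diet in both genotypes, at -2.13 and -1.45, and Iscu, the scaffold for iron-sulfur clusters, was at 0.68 and 0.16.

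The share of barcodes with at least 1 UMI was compared after each barcode was thinned to 1000 UMIs. For Hmox1 it was 69.6%, 64.4%, 20.3% and 37.8% of macrophage barcodes, and 84.8%, 88%, 40.7% and 66.7% before thinning. The B class, which should largely lack the gene, gave thinned shares of 4.79%, 7.05% and 1.19% in the first 3 libraries. Median depths before thinning were 4708.5, 4715, 2796 and 4025 UMIs in macrophages and 2952, 3518 and 1924 in the B class. For Slc40a1 the thinned share in macrophages was 2.17%, 2.40%, 0.213% and 1.48%, which is 5 barcodes or fewer in each library. The median macrophage barcode stood at 1486, 1640, 0 and 271 CPM for Hmox1, so on normal diet most barcodes had the transcript, and in WT/ApoE-/- on western diet most had none counted.

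The genes whose pattern was most like each member were sought over 23 sums of a class in a library, among 3644 genes, by Pearson's r of log2(CPM + 10). These sums share libraries, so r is a description. For Hmox1 they were Sqstm1 (0.95), Zfand5 (0.88) and Nfe2l2 (0.87). For Slc40a1 they were Lyz1, Clec10a and Clec4a1, and for Slc11a1 Rab7b, Plau and Aif1. Ftl1 was closest to Rab7b, Ifi207 and Bach1, while Fth1 was closest to Esd, Gpx1 and Asah1. Tfrc was closest to Srsf2, Eif5 and Ncl, Slc48a1 to Rex1bd, Rsu1 and Vim, and Blvrb to Ctsz, Dtnbp1 and Grn. Among the 8 genes themselves r ran from -0.69 for Tfrc with Slc48a1 to 0.95 for Ftl1 with Slc11a1.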

How the data were processed

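Single-cell RNA libraries of dissociated mouse aorta were analysed, 1 per group. The deposited matrices hold counts, whole numbers of UMIs for each gene and barcode. Per the file headers the authors made the normal diet matrices with Cell Ranger 6.0.1 and the western diet ones with 6.1.2. The submitters' processing notes name Cell Ranger 6.1.2, Seurat 4.1.0 and mm10. The annotation release is not given in the sources used here, and 99.6% of features matched GENCODE M21 by gene ID.

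A barcode was kept from 1000 UMIs upward and up to 10% mt- UMIs. Each was assigned to the first class it met: macrophage (C1qa, C1qb and C1qc, at least 5 UMIs), B (Cd79a, Ms4a1, 2), T (Cd3d, Cd3e, Trac, 2), endothelial (Pecam1, Cdh5, 2), fibroblast (Pdgfra, Serpinf1, 3) and smooth muscle (Myh11, Cnn1, 3). No doublets were removed. UMIs were summed per class and library and scaled to CPM. A limit beside a count of 0 is 3 counts of the total. All intervals cover counting error only. Scripts used Python 3.11.15, numpy 2.4.6, scipy 1.17.1 and pandas 2.3.3, and the interval code was tested on simulated data. Named genes were the 8 members and, per list, the 2 genes with the most UMIs in macrophages and any with at least 50 UMIs past 2 fold the same way in both genotype contrasts. Counts over the heme synthesis list are not reported here. Other list genes are named because they make up a small count, after their values were seen. The members, lists and rules were chosen with earlier results of these data known. Alternatives changed depth, mitochondrial, class, doublet-like, weighting, thinning, scaling, count and fold settings.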

Additional observations from a re-analysis of the deposited data

Results flagged for a closer look

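In 9 cases LysM-DKO was above WT on normal diet and below it on western diet, by log2 ratio, with counting intervals that excluded 0 on both. The search covered the 8 genes in the macrophage, endothelial, fibroblast and smooth muscle classes, and the same count over all genes was not made. Outside macrophages only Hmox1 was run under other settings. With 1 library per group the difference between the diets was not tested. Fth1 and Ftl1 have the most UMIs of the 8 genes, so their counting intervals exclude 0 at small ratios. Fth1 had 0.26 on normal and -0.04 on western diet in macrophages, 0.21 and -0.52 in the endothelial class, 0.32 and -0.23 in fibroblasts, and 0.23 and -0.18 in smooth muscle. In macrophages the Fth1 signs were not stable: the western diet ratio was 0.02 with median-ratio scaling, and the normal diet ratio was -0.20 without barcodes that met more than 1 class rule. In barcodes of neither macrophage state the Ftl1 ratio with western diet was 0.34 [0.26 to 0.42], so its sign turned too. Ftl1 had 0.16 and -0.21 in macrophages, 0.53 and -0.45 in the endothelial class, and 0.37 and -0.80 in smooth muscle. In smooth muscle, Hmox1 had 0.66 and -0.97, and Slc11a1 had 1.23 and -1.01, the latter at 3.78 CPM or less in each library. Macrophage and neutrophil markers of the smooth muscle class had the same order over the libraries as Slc11a1, and their part was not tested.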

How the results depend on the processing

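With 1 library per group, no replicate could be left out. No paired analysis was possible because each group is 1 library and the labels give no replicate numbers. Hmox1 in macrophages, western over normal diet, stayed past 2 fold under all 9 other settings of filter, class, weight and scale, between -3.34 and -2.60 in WT and between -3.09 and -2.39 in LysM-DKO. The count of genes past 2 fold for LysM-DKO over WT on normal diet, 0, became 1 with at most 5% mt- UMIs or from 10 C1q UMIs (Slc11a1 both times), 1 with equal weight for each barcode (Slc40a1) and 2 at 1.5 fold. On western diet the count of 2 became 1 with at least 2000 UMIs or without barcodes that meet more than 1 class rule (Slc40a1), 1 with thinned barcodes or at least 100 UMIs (Tfrc) and 0 with at most 5% mt- UMIs, where Slc40a1 turned to -0.38. Within subsets, an alternative chosen after seeing the data, that count was 1 in foamy (Slc40a1), 0 in resident and 1 in neither (Slc11a1). For western over normal diet, resident barcodes gave 2 in WT, with Slc40a1 turned to 0.45 from 3 UMIs, and 1 in LysM-DKO, where Tfrc was at -0.06. The share of all genes past the limit was not counted under these other settings or within subsets. These counts therefore have no background to be read against. Of the log2 ratios under settings chosen at the outset, 218 stayed within the counting interval, 69 left it and 1 reversed. Under those added after seeing the data, subsets included, 101 stayed, 70 left it and 1 reversed. Only a ratio past 2 fold whose sign changed was labeled reversed. Sign changes of smaller ratios, some of them given above, were counted among those that stayed or left it. The cause of these shifts was not tested. Depth limits Slc40a1 most, at 7 to 31 UMIs in macrophages.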
